A study of Rattus norvegicus with 9 samples.

Results

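Prostaglandins and leukotrienes are lipid signals made from arachidonic acid, and 10 genes that make, receive or break down these signals were followed in rat blood cells. They were Pla2g4a, Ptgs1, Ptgs2, Ptges, Ptger2, Ptger4, Ptgr2, Alox5, Alox5ap and Lta4h. Members were found by gene name or by RefSeq transcript among the probes other than controls, with Ptgr2 also accepted under its older name Zadh1, and this gave 11 of the 41012 probes on the array. The array covers 36752 genes or transcripts in all. Ptgs2 had 2 probes and the other genes 1 each.

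RNA came from peripheral blood mononuclear cells (PBMC), the lymphocytes and monocytes recovered from blood on a Ficoll density gradient, of male Wistar rats 6 months old and bled in the fed state. The cafeteria group (5 animals) was offered energy-dense, fat-rich foods beside its chow for 4 months, starting when the animals were 2 months old, and the control group (4 animals) ate standard chow alone. The labels give no genetic change in either group, and a further control was left out by the submitters for lack of RNA. Each animal had 1 two-colour array, with its RNA in Cy5 and a pool of all samples in Cy3. Values are therefore log2 ratios of an animal to that pool, where 0 is the level of the pool, and they do not rank genes by abundance.

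Cytosolic phospholipase A2 releases arachidonic acid from membranes. Cyclooxygenases turn it into prostaglandin H2, from which terminal synthases make prostaglandin E2 and thromboxane, while 5-lipoxygenase with its activating protein starts the leukotriene branch. In blood, monocytes and platelets are major sources of these lipids. Prostaglandin E2 signals to lymphocytes and monocytes through the receptors EP2 and EP4.

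Per array, 58.8% to 66.7% of spots had Cy5 well above background. The defining genes of T cells (Cd3d, Cd3e, Cd3g and Cd247), of monocytes (Cd14, Csf1r, Cd68 and Lyz2) and of B cells (Ms4a1 and Cd79b) were all above background, as the PBMC label implies. Platelet genes (Pf4, Ppbp and Gp9) and erythroid genes (Hbb, Alas2 and Ahsp) were above background too. The animals carry separate numbers within each group, and the p-values measure the spread between them. In such bulk samples a lower level may mean fewer cells of a type or less RNA per cell, and these cannot be told apart.

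No large shift of the pathway was detected between diets, although the interval was wide for some genes (Ptgs1, −1.04 to 0.69). Among the 9 genes above background, the one whose groups stood apart was Ptgr2, the enzyme that reduces 15-keto prostaglandins, at 1.23-fold the control level. Ptger2, which encodes EP2, was next at 1.13-fold, with overlapping groups. The other 7 genes differed by between −0.18 and 0.05 on the log2 scale. The test was limma's, and p-values were adjusted by Benjamini-Hochberg across the 25808 probes kept. By it 0 of the 9 passed an adjusted p of 0.05, against 0.00775% of all probes (2 probes, both lower in cafeteria animals). Unadjusted p-values lay under 0.05 for 2 of 9, Ptgr2 and Ptger2, both higher, against 4.4% of all probes in either direction (1.54% higher and 2.86% lower). The groups did not overlap for 1 of 9, against 1.27% of all probes, with 0.453% higher and 0.821% lower. The difference was above 0 for 6 of 9, against 54.3% of all probes. The median difference over the 9 genes was 0.00, and over all 22771 genes kept it was 0.01.

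**Figure D1:**
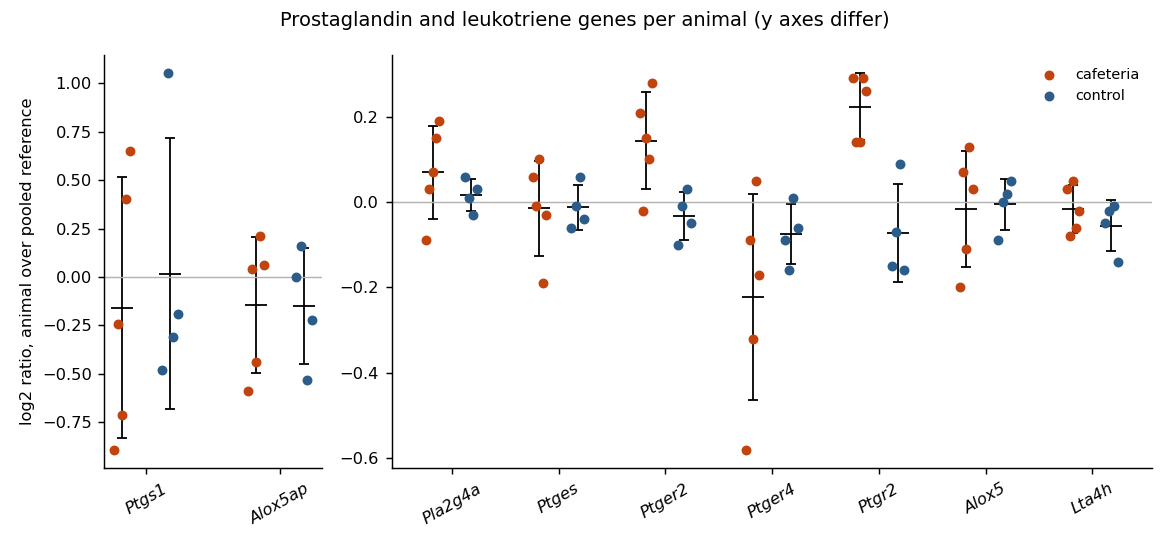
Log2 ratio of each animal to the reference pool (y axis, with separate scales on the left and right) for the 9 genes above background, cafeteria animals (n = 5) left of control animals (n = 4). Points are animals, and black bars are the mean and SD. Ptgr2 is the gene whose groups do not overlap, and Ptgs1 and Alox5ap are the most spread among animals on this scale. With the scanner software's own log ratio, Alox5 ran from −0.63 to 1.87.

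**Figure D2:**
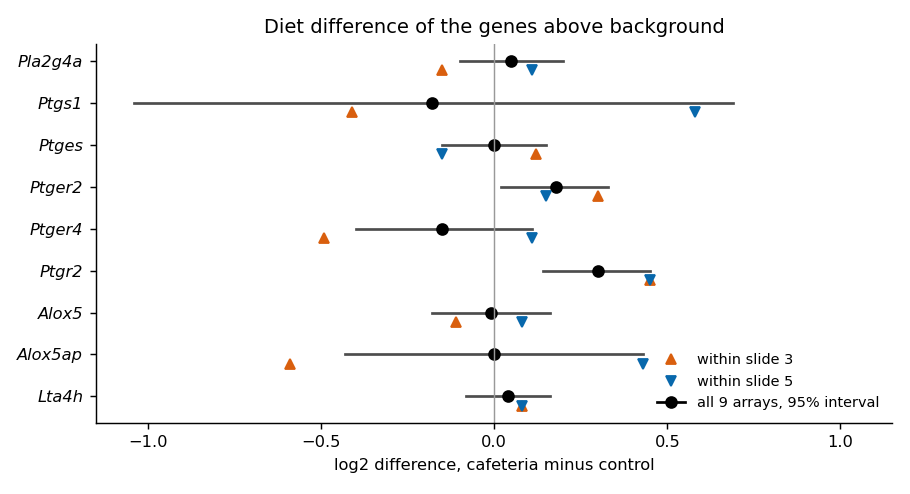
Log2 difference between cafeteria and control animals (x axis) for the same 9 genes, with circles for all 9 arrays, lines for the 95% interval from limma, and triangles for the differences within the slides that held 1 array of each group. Ptgr2 lies at 0.30 (interval 0.14 to 0.45) with both slides at 0.45, whereas the slides lie on opposite sides of 0 for Pla2g4a, Ptgs1, Ptges, Ptger4, Alox5 and Alox5ap. Pla2g4a, Ptges and Alox5 had the lowest signal of the 9, and their narrow intervals hold for this scale alone.

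The pathway begins with Pla2g4a, the cytosolic phospholipase A2 that frees arachidonic acid (rn4, chr13:64146152-64146211). Its log2 ratios were −0.09, 0.03, 0.07, 0.15 and 0.19 in cafeteria animals, against 0.06, 0.01, −0.03 and 0.03 in control animals. Cafeteria animals held both the lowest and the highest values, so the groups overlapped. The difference was 0.05 (SE 0.07, 95% interval −0.10 to 0.20; limma adjusted p = 0.997).

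The cyclooxygenases are the constitutive Ptgs1 (COX-1) and the inducible Ptgs2 (COX-2), the targets of aspirin-like drugs. Ptgs1 was above background on all 9 arrays and in the pool. Ptgs2 was not: of its probes, at chr13:64434457-64434516 and chr13:64430899-64431083 (rn4), each was well above background on 1 cafeteria array and 0 control arrays, and on 0 arrays in the pool. The arrays differed, cafeteria 4 for the first probe and cafeteria 13 for the second, so the probes did not mark the same animal and no fold is given for Ptgs2. Because these isoforms contrasted in detection and Ptgr2 stood apart between diets, the 250 bases before the start of these 3 genes are shown, from RefSeq on GRCr8 and read 5′ to 3′ on the coding strand. Capitals mark matches on either strand to 5 motifs, the TATA box (TATAAA), the GC box (GGGCGG), the E box (CACGTG), the GATA site (TGATAA or AGATAA) and the ETS core (GGAAGT).
Ptgs1, chr3:39981169-39981418: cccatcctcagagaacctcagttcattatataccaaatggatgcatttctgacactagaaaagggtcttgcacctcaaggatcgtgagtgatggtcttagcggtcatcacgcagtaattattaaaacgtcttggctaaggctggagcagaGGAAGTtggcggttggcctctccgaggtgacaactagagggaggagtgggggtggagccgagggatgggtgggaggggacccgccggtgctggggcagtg
Ptgs2, chr13:64713813-64714062: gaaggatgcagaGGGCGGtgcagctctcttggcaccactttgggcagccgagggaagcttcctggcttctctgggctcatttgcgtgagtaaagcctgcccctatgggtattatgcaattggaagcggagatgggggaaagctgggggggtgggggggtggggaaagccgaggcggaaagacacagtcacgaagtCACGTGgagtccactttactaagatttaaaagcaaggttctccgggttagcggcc
Ptgr2, chr6:109662248-109662497: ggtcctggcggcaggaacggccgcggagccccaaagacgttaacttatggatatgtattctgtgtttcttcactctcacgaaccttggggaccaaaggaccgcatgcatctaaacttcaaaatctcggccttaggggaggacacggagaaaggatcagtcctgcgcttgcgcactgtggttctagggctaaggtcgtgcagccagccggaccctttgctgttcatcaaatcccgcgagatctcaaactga
The Ptgs1 stretch holds an ETS core, a motif found in 19.2% of 33469 RefSeq promoters of that length. That of Ptgs2 holds a GC box (30.5% of promoters) and an E box (5.59%), the site of basic helix-loop-helix factors. None of the 5 motifs is in the Ptgr2 stretch, whose GC content of 54.0% is near the promoter median of 51.2%. Promoters were found for 9 of the 10 genes, and these matches describe the letters alone.

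Ptgs1 differed more among animals than between diets. Its log2 ratios (rn4, chr3:15365115-15365174) were −0.89, −0.24, −0.71, 0.40 and 0.65 in cafeteria animals, against −0.48, 1.05, −0.31 and −0.19 in control animals. Both groups held animals below and above the pool, control 4 was the highest, and cafeteria 1 and 7 were the lowest. The means were −0.16 ± 0.67 in cafeteria animals and 0.02 ± 0.70 in control animals (SD, n = 5 and 4), a difference of −0.18 (SE 0.39, 95% interval −1.04 to 0.69; limma adjusted p = 0.997). Without control 4 the difference was 0.17, and within slides it was −0.41 and 0.58, so no direction can be read. Ptgs1 was printed on 10 spots per array, which give the error between spots and not that of RNA preparation, labelling or hybridization, since each animal had 1 array. The SD among the spots of an array was between 0.02 and 0.09 (median 0.03), whereas the animals spanned 1.94. Its residual SD of 0.68 was larger than that of 99.3% of the probes tested.

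**Figure D3:**
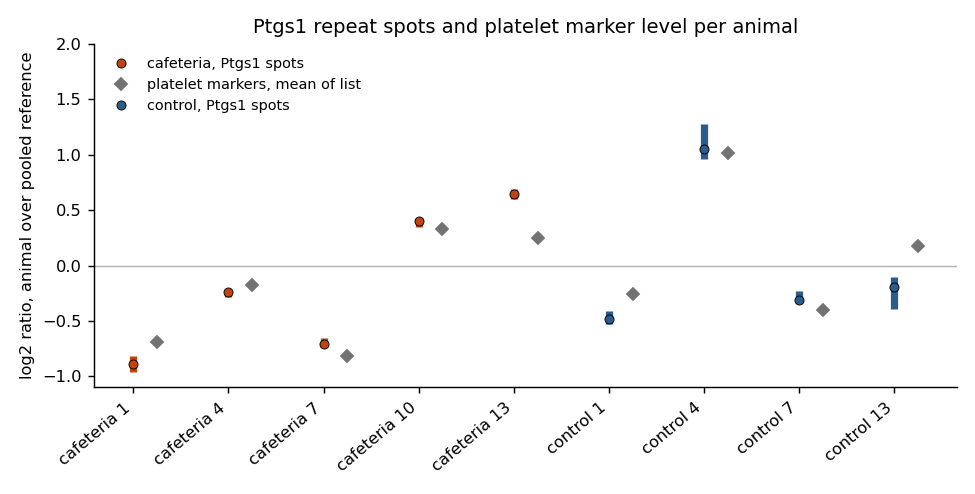
Log2 ratio to the pool (y axis) for each animal (x axis), cafeteria left and control right. Coloured circles are the mean and coloured bars the range over the repeat spots of Ptgs1, and grey diamonds are the mean of 13 platelet marker genes. The spots of an array lie close together beside a span of 1.94 among animals, and the platelet markers follow Ptgs1.

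Ptges, the inducible microsomal prostaglandin E synthase (rn4, chr3:9946741-9946800), gave log2 ratios of 0.06, −0.01, 0.10, −0.19 and −0.03 in cafeteria animals, against −0.06, −0.01, 0.06 and −0.04 in control animals. The control values lay wholly inside the cafeteria range. The difference was 0.00 (SE 0.07, 95% interval −0.15 to 0.15; limma adjusted p = 1).

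The receptors for prostaglandin E2 both couple to cyclic AMP. Ptger2 (EP2; rn4, chr15:20889441-20889500) had log2 ratios of 0.21, −0.02, 0.15, 0.10 and 0.28 in cafeteria animals, against −0.10, −0.01, 0.03 and −0.05 in control animals. Cafeteria animals exceeded every control except for cafeteria 4, which lay among the controls. The difference was 0.18 (SE 0.07, 95% interval 0.02 to 0.33; unadjusted p = 0.0275, limma adjusted p = 0.997), with 0.30 and 0.15 within slides.

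Ptger4 (EP4; rn4, chr2:54423296-54423355) had log2 ratios of −0.58, −0.09, −0.32, 0.05 and −0.17 in cafeteria animals, against −0.09, −0.16, 0.01 and −0.06 in control animals. Cafeteria 1 and 7 were low, and the others lay within or beside the control range. The difference of −0.15 (SE 0.12, 95% interval −0.40 to 0.11; limma adjusted p = 0.997) was smaller than the spread of the cafeteria group (SD 0.24, n = 5). Its sign differed within slides (−0.49 and 0.11), and without cafeteria 1 it was −0.06.

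Ptgr2, named Zadh1 in the array files (rn4, chr6:108379098-108379157), had log2 ratios of 0.29, 0.14, 0.14, 0.29 and 0.26 in cafeteria animals, against −0.15, −0.07, 0.09 and −0.16 in control animals. Every cafeteria animal lay above every control, with control 7 the nearest. The means were 0.22 ± 0.08 in cafeteria animals and −0.07 ± 0.12 in control animals (SD, n = 5 and 4). The difference of 0.30 (SE 0.07, 95% interval 0.14 to 0.45) ranked 51 by p among 25808 probes, with an unadjusted p of 0.00178. It did not pass the threshold after adjustment (limma adjusted p = 0.853), and the difference was 0.45 within each of the 2 slides that held both diets.

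Marker levels of other cells are given beside Ptgr2, with 0 marker genes past the adjusted threshold in any list. The mean log2 ratio of 13 erythroid genes was −0.56 to −0.09 in cafeteria animals and −0.76 to −0.33 in control animals, and 11 of the 13 had a difference above 0. Among them were the haemoglobin chain Hbb (difference 0.52), the haem synthesis enzyme Alas2 (0.61) and the haemoglobin chaperone Ahsp (1.02). Of the 13, 8 were higher with an unadjusted limma p under 0.05, against 1.54% of all probes. The groups did not overlap for 3, all higher, against 0.453% of all probes. The list's level ran with Ptgr2 over the 9 animals at Pearson r = 0.69 (exact permutation p = 0.0511, adjusted over 81 pairs 0.229) and Spearman rho = 0.68 (exact permutation p = 0.0503, adjusted 0.278), with r = 0.67 without control 1 and 7. Both Ptgr2 (0.30) and the erythroid list (0.38) were higher in cafeteria animals, and the permutations ignored diet. This r therefore cannot be told apart from the difference between diets. All 12 B cell genes also had a difference above 0 (mean level −0.20 to 0.35, against −0.24 to 0.13 in control animals), as had 10 of 12 genes of cytotoxic T and NK cells (mean level −0.21 to 0.42, against −0.43 to −0.07 in control animals). For T cells, 18 of 19 genes had a difference below 0 (mean level −0.44 to 0.08 in cafeteria animals, against −0.23 to 0.12 in control animals). So had 13 of 13 platelet genes (list difference −0.35, or −0.06 without control 4), 9 of 11 neutrophil genes (−0.20) and 12 of 18 monocyte genes (−0.07). Over all genes kept, 54.7% had a difference above 0. The part of these cells in the Ptgr2 difference was not tested.

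In the leukotriene branch, no difference between diets beyond the spread was detected for Alox5, Alox5ap or Lta4h. Alox5, the 5-lipoxygenase itself (rn4, chr4:152610831-152612409), was well above background on 4 of 5 cafeteria and 3 of 4 control arrays. Its log2 ratios were −0.20, 0.07, −0.11, 0.13 and 0.03 in cafeteria animals, against −0.09, 0.00, 0.02 and 0.05 in control animals. The groups overlapped, and the difference was −0.01 (SE 0.08, 95% interval −0.18 to 0.16; limma adjusted p = 0.999).

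Alox5ap, the membrane protein FLAP that presents arachidonic acid to 5-lipoxygenase (rn4, chr12:6246233-6246292), had log2 ratios of −0.59, 0.04, −0.44, 0.21 and 0.06 in cafeteria animals, against 0.00, 0.16, −0.53 and −0.22 in control animals. Cafeteria 1 and 7 and control 7 were low, and both groups averaged −0.15 (SD 0.35, n = 5, and 0.30, n = 4). The difference was 0.00 (SE 0.19, 95% interval −0.43 to 0.43; limma adjusted p = 1), with −0.59 and 0.43 within slides. Its residual SD was larger than that of 93.2% of probes.

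Lta4h, the hydrolase that makes leukotriene B4, a chemoattractant for neutrophils (rn4, chr7:30512501-30512560), was the steadiest of the 9. Its log2 ratios were 0.03, −0.08, 0.05, −0.06 and −0.02 in cafeteria animals, against −0.05, −0.02, −0.01 and −0.14 in control animals. The groups overlapped, and only 5.47% of probes had a smaller residual SD. The difference was 0.04 (SE 0.06, 95% interval −0.08 to 0.16; limma adjusted p = 0.997).

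The spread of Ptgs1 followed that of platelet genes. Platelets carry COX-1 as the source of thromboxane, and the mean log2 ratio of 13 platelet genes was −0.81 to 0.33 in cafeteria animals and −0.40 to 1.01 in control animals. Over the 9 animals Ptgs1 and this mean gave Pearson r = 0.94 (exact permutation p = 0.000102, adjusted over 81 pairs of a gene and a marker list 0.00826) and Spearman rho = 0.95 (exact permutation p = 0.000353, adjusted 0.0286). Without control 4 and cafeteria 7, the animals farthest from the median, r was 0.89. Taken singly, the 13 platelet genes had r with Ptgs1 of between 0.77 (Pf4) and 0.95 (Clec1b), with 12 of them at 0.8 or more. The platelet list itself differed by −0.35 between diets and by −0.06 without control 4.

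Alox5ap followed monocyte genes, and it ran with platelet genes too. The mean of 18 monocyte genes was −0.49 to 0.20 in cafeteria animals and −0.18 to 0.14 in control animals. Alox5ap ran with it at r = 0.92 (exact permutation p = 0.000584, adjusted 0.0167) and rho = 0.85 (exact permutation p = 0.00607, adjusted 0.164), and r was 0.87 without cafeteria 1 and 7. Single monocyte genes were less uniform: r was between −0.39 (Mpeg1) and 0.91 (Clec4a1), above 0 for 14 of 18, and reached 0.88 for Csf1r, the receptor of the monocyte growth factor. Alox5ap also ran with the platelet list at r = 0.79 (exact permutation p = 0.0111, adjusted 0.106) and rho = 0.88 (exact permutation p = 0.00308, adjusted 0.125), and r was 0.78 without control 4 and cafeteria 7. Taken singly, 13 of 13 platelet genes had r above 0 with Alox5ap, from 0.47 (Pf4) to 0.89 (Treml1). Their median r was 0.77, against 0.70 for the monocyte genes. Whether Alox5ap goes with 1 of these cell types more than the other was not tested.

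**Figure D4:**
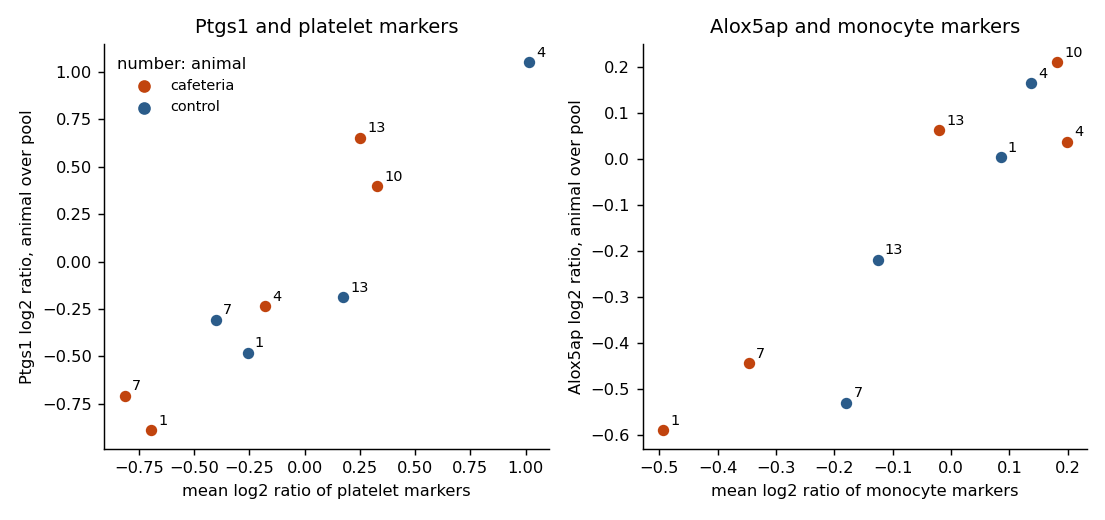
Left, Ptgs1 (y axis) against the mean of 13 platelet genes (x axis); right, Alox5ap against the mean of 18 monocyte genes; all are log2 ratios to the pool. Each point is an animal, numbered as in its group. Ptgs1 rises with the platelet genes (r = 0.94) and Alox5ap with the monocyte genes (r = 0.92), with both diets spread along each line.

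A further pair of relations passed adjustment by Pearson and rested on a shorter list, the 5 of 11 dendritic cell genes above background (Siglech, Itgae, Batf3, Clec10a and Ccr7). Among cafeteria animals Clec10a varied most (SD 1.02, against 0.15 to 0.38 for the others), so it weighs most in that list's mean. Whether the relations hold for dendritic cells as such was not tested. Ptger4 had r = 0.90 (exact permutation p = 0.00062, adjusted 0.0167) and rho = 0.78 (exact permutation p = 0.0172, adjusted 0.278) with that list, and r = 0.85 without cafeteria 1 and 10. Alox5 had r = 0.88 (exact permutation p = 0.00203, adjusted 0.0412) and rho = 0.73 (exact permutation p = 0.0311, adjusted 0.278), and r = 0.66 without them. Its Cy5 signal was not well above background on cafeteria 1, which gave its lowest value (−0.20), nor on control 13. With the scanner software's own log ratio the r was 0.46 for Ptger4 and 0.50 for Alox5, and neither pair passed adjustment. On that scale Ptgs1 had r = 0.95 with the platelet list and passed (permutation p adjusted over the 81 pairs, 0.00692), whereas Alox5ap had r = 0.84 with the monocyte list and did not (adjusted 0.151). In all, 4 of 81 pairs passed by Pearson and 1 by Spearman. Both values of a pair come from the same array and share its normalization, and no slide held enough arrays for a value of its own.

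The genes also varied with each other, although 0 of 36 pairs passed adjustment and 6 had an unadjusted p under 0.05. Ptger2 and Ptgr2, both higher in cafeteria animals, gave r = 0.83 (exact permutation p = 0.00791, adjusted 0.0949) and rho = 0.85 (exact permutation p = 0.00607, adjusted 0.124), with r = 0.80 without cafeteria 1 and 13. Because the permutations ignored diet, this r cannot be told apart from the difference between diets. Ptgs1 and Alox5ap gave r = 0.77 (exact permutation p = 0.0168, adjusted 0.151) and rho = 0.83 (exact permutation p = 0.00827, adjusted 0.124), with r = 0.76 without control 4 and cafeteria 13. Ptger4 and Alox5 gave r = 0.86 (exact permutation p = 0.00246, adjusted 0.0886) and rho = 0.78 (exact permutation p = 0.0172, adjusted 0.124), but r = 0.51 without cafeteria 1 and 7 and 0.22 with the scanner's log ratio. Ptges ran opposite to Alox5ap (r = −0.78, exact permutation p = 0.00726, adjusted 0.0949; rho = −0.65, exact permutation p = 0.0666, adjusted 0.274), with r = −0.78 without cafeteria 7 and 10.

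Among 10381 named genes, the pattern most like that of Ptgs1 over the 9 arrays was that of Cd9, a tetraspanin abundant on platelets (r = 0.993). Cd9 had log2 ratios of −0.78, −0.16, −0.57, 0.34 and 0.39 in cafeteria animals, against −0.43, 0.92, −0.33 and −0.14 in control animals, which is the order of Ptgs1 at its extremes. The next was Ssu72, a phosphatase of RNA polymerase II (r = 0.980). Alox5ap was nearest to Chp1 (0.984) and Slc66a1 (0.967), Ptger2 to Jkamp (0.970) and Trpc1 (0.950), and Ptgr2 to Pcgf1, a Polycomb ring finger gene (0.939), and Cct8l2 (0.905). The nearest to Pla2g4a were Pacc1 (0.954) and Rfc3 (0.950), to Ptger4 Xylt1 and Akap5 (0.965 each), to Lta4h Fem1b (0.981) and Hps6 (0.950), to Ptges Apoa5 (0.976), and to Alox5 Rln1 (0.955) and Zc3h12a (0.951). With 9 arrays and this many genes, high values of r are reached by many genes, and they describe likeness alone.

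Other genes of the pathway gave the setting for these 10. Of 59 further genes, 51 had a named probe on the array and 36 were above background. By limma 0 of the 36 passed the adjusted threshold, against 0.00775% of all probes. An unadjusted p under 0.05 was found for 1 of the 36, with a difference below 0. Over all probes the share was 4.4% (1.54% higher and 2.86% lower), so 1 of 36 is no more than that share. By sign, 13 differences lay above 0 and 23 below, at a median of −0.03, against 54.7% of all genes higher and a median of 0.01. By role, the phospholipases A2 with annexin A1, their regulator, were the lowest, at a median of −0.09, with 10 of 12 below 0. Genes of prostaglandin transport and breakdown, which act beside Ptgr2, had a median of 0.09, with 3 of 4 above 0. Hpgd, counted among those above 0, was well above background on 5 cafeteria arrays and 1 control array. It was thus kept mainly through the group where it was higher, and nothing is concluded from this count.

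The gene that passed the unadjusted threshold was Abcc1, the transporter that exports leukotriene C4. Its log2 ratios were −0.34, −0.12, −0.22, −0.41 and −0.32 in cafeteria animals, against 0.38, 0.57, −0.22 and 0.11 in control animals. Control 7 lay among the cafeteria animals, and the other controls above them. The difference was −0.49 (SE 0.14; unadjusted p = 0.00608, limma adjusted p = 0.985), with −0.73 and −0.52 within slides.

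The next lowest p-values among the genes below 0 belonged to secreted phospholipases and a leukotriene-processing enzyme. Pla2g12a differed by −0.50 (SE 0.23), Ggt1, a gamma-glutamyl transferase that converts leukotriene C4, by −0.18 (SE 0.10), and Pla2g2a by −0.48 (SE 0.29), each with a limma adjusted p of 0.997. Above 0 the first was Alox15, the 12/15-lipoxygenase, whose log2 ratios were 0.04, −0.01, −0.21, 0.05 and −0.11 in cafeteria animals, against −0.26, −0.03, −0.39 and −0.23 in control animals (difference 0.18, SE 0.09; limma adjusted p = 0.997). The groups overlapped through cafeteria 7 and 13 and control 4. Ptgr3, another prostaglandin reductase, differed by 0.21 (SE 0.11), but by 0.48 and −0.13 within slides. Hpgd, which oxidizes prostaglandins to the 15-keto form that Ptgr2 reduces, differed by 0.09 (SE 0.06), with most control arrays below the detection rule. Prxl2b, a prostamide and prostaglandin F synthase, differed by 0.21 (SE 0.16). The reductase Ptgr1 went the other way, by −0.16 (SE 0.11), with −0.55 and 0.24 within slides, and is named after its values were seen.

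**Figure D5:**
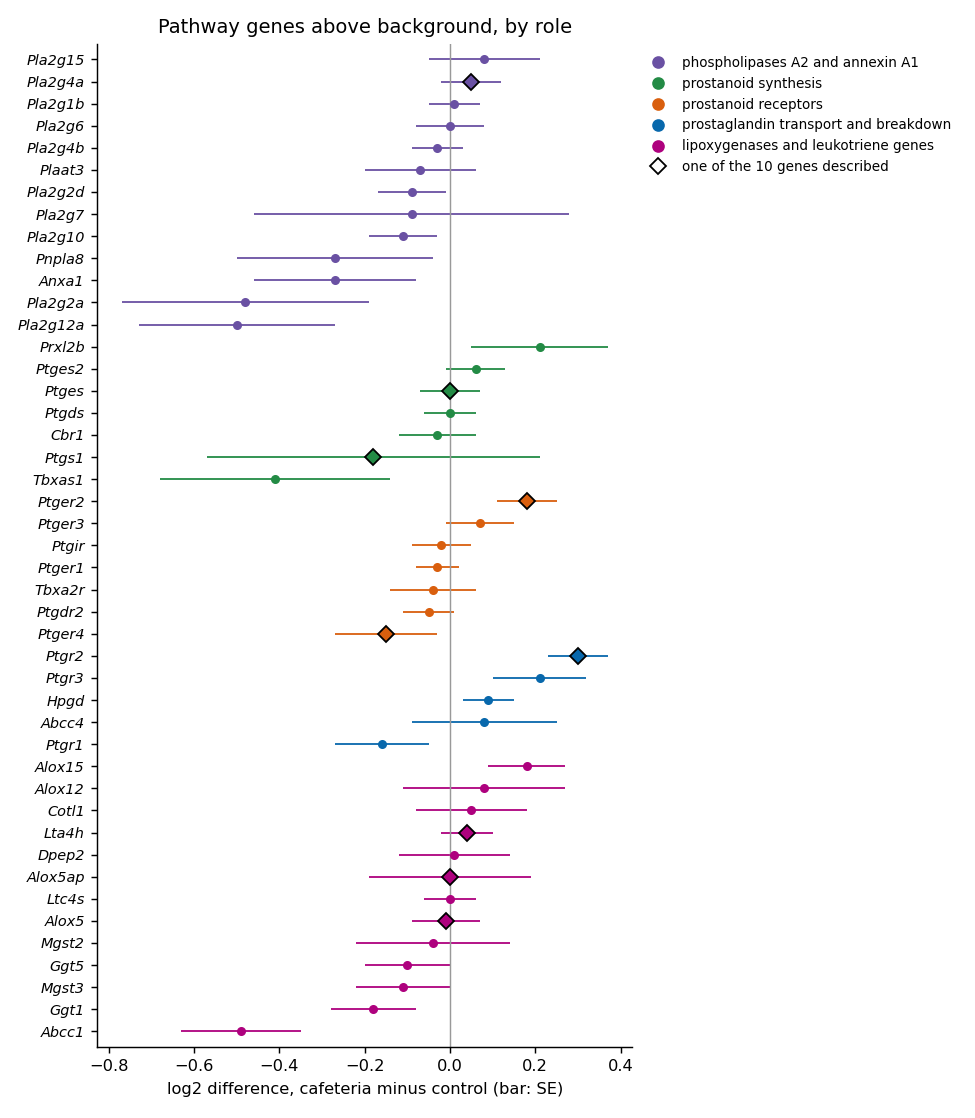
Log2 difference between cafeteria and control animals (x axis, bars are the SE) for the genes of the pathway above background, coloured by role, with diamonds for the 10 genes described where measured. None passed the adjusted threshold, and Ptgr2 is the highest.

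Genes for receptors of leukotrienes and related lipids were at the detection limit. Of 4 with a named probe on the array, 0 were kept. Ltb4r, the high-affinity receptor for leukotriene B4, was above background on 2 cafeteria arrays and 1 control array, Cysltr2 on 1 array, and Cysltr1 and Ltb4r2 on 0. Prostacyclin synthase (Ptgis) and the receptors Ptgdr and Ptgfr were likewise above background on 0 of the 9 arrays.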

How the data were processed

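The spot and background intensity of both dyes was deposited by the authors as read by Feature Extraction 9.5.1.1, per the file headers, with positions on rn4. The deposited files also hold the software's dye-normalized ratio of the animal to the pool as a log10 value, and its outlier and detection flags. The authors' deposited value table was read as log2 from its values. It is filled for 21466 spots and followed Cy5 (rank correlation 0.993 to 0.999). Its array medians ran from 9.40 to 9.69, so it is not centred, and how the pool entered it is unknown.

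Intensities were background-corrected with normexp (offset 50) and normalized by loess within arrays in limma 3.58.1 (R 4.3.3), with control spots at weight 0, outlier spots dropped and repeat spots averaged. Probes with Cy5 well above background on at least 4 arrays were kept (25808 of 41012, 62.9%), and 19436 probes (47.4%) were named through RefSeq. The rest, apart from members, had no gene symbol, and each counted as a transcript of its own. Genes of the pathway and marker lists were found through these names alone. The fit had 7 residual and 2.94 prior degrees of freedom. A gene with several probes was represented by its brightest. Of 36 pairs of arrays, 0 held identical values (highest r = 0.57). The number of arrays limits the precision.

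Correlations used two-sided exact permutation tests over all pairings, in Python 3.11.15, with marker lists as mean log2 ratios. All 9 animals were permuted together, without regard to diet. The fit was tested on simulated data. Animal numbers occur in both groups, and same-numbered animals did not deviate together (r = −0.05, 0.11, 0.10 and −0.15 for numbers 1, 4, 7 and 13), so they were not paired. The members and lists were chosen with earlier results of these data known. The text names all 10 members, up to 4 further pathway genes per direction with the smallest unadjusted p, the defining genes of the marker lists and any gene a result turns on, and the 2 named genes most alike to each member, except for genes not reported here. Genes named as not above background were chosen after their values were seen. The 9 marker lists covered platelets, erythroid cells, dendritic cells, B cells, T cells, cytotoxic lymphocytes, monocytes, neutrophils, and the rarer granulocytes (basophils with mast cells and eosinophils). The files do not place a probe in an exon or untranslated region.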

Additional observations from a re-analysis of the deposited data

How the results depend on the processing

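No member passed the adjusted threshold under any setting. Ptgr2 kept its sign in all 24 alternatives (0.27 to 0.51, lowest adjusted p 0.277), as did Ptger2 (0.14 to 0.33, lowest adjusted p 0.390) and Lta4h (0.00 to 0.18). With slide as a fixed block Ptgr2 was 0.45 (SE 0.13) and Ptger2 0.23 (SE 0.13). The other 6 changed sign somewhere. With no background correction Ptges was −0.01, Alox5 0.04 and Alox5ap −0.01. With the scanner's log ratio Ptges was −0.08, Alox5 0.04 and Ptger4 0.00. With Cy5 alone Alox5 was 0.08 and Alox5ap −0.02. With the authors' values Ptger4 was 0.09, and the member median 0.16 beside 0.13 for all probes. With slide as a fixed block Pla2g4a was −0.02, Ptgs1 0.09, Ptges −0.01 and Alox5ap −0.08, and as a random block Ptges and Alox5ap were 0.00. Array weights gave Alox5 at 0.01. With the replicate number as a block Alox5ap was −0.09, and 0 probes were called, against 2. Leaving out 1 animal at a time gave −0.38 to 0.17 for Ptgs1, −0.03 to 0.04 for Ptges, −0.05 to 0.04 for Alox5, −0.13 to 0.11 for Alox5ap, −0.22 to −0.06 for Ptger4 and 0 to 2 calls over all probes (0 without control 4 or 7 or cafeteria 1, 10 or 13, and 1 without control 1 or cafeteria 7). Ptgs1 was at its lowest without cafeteria 13, at 0.01 without cafeteria 1 and at its highest without control 4. The calls over all probes were 0 with no background correction, the scanner's log ratio, median centring, Cy5 alone, the authors' values with or without centring, a robust trended prior, array weights, and slide as a fixed block. With the scanner's log ratio 2 gene and marker pairs passed adjustment, against 4: Ptgs1 with platelets (r = 0.95, exact permutation p adjusted to 0.00692) and Ptges with monocytes (r = −0.92, adjusted 0.0241), which had r = −0.73 (adjusted 0.151) on the main scale. Alox5ap with monocytes, Ptger4 and Alox5 with dendritic cells no longer passed. The cause of these changes was not tested.

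Alox5 was well above background on 7 of 9 arrays, and Ptgs2 and the leukotriene receptors fell below the detection rule, so small changes in them were not detectable here. The number of arrays limits the precision: the interval of Ptgs1 spans −1.04 to 0.69, that of Lta4h −0.08 to 0.16. Pla2g4a, Ptges and Alox5 had mean log2 signals of 7.82, 7.66 and 7.51, near the 7.28 and 7.20 of the Ptgs2 probes. Their SE was 0.07, 0.07 and 0.08 on the main scale, but 0.20, 0.20 and 0.47 with the scanner's log ratio. The narrow intervals of these genes therefore hold for the main scale alone.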

Other observations

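Other enzymes of the arachidonic acid pathway were measured beside Ptgs1. Thromboxane synthase (Tbxas1) had log2 ratios to the pool of −1, 0.03, −0.90, 0.43 and −0.49 in cafeteria animals, against 0.07, 0.18, −0.27 and 0.12 in control animals. Cafeteria 1 and 7 were low, as they were for Ptgs1, and control 4 was the highest control, at 0.18. Other animals did not follow Ptgs1: cafeteria 13 was low at −0.49, against 0.65 for Ptgs1. Control 4 lay below cafeteria 10, whereas it was the highest animal for Ptgs1, at 1.05. The difference was −0.41 (SE 0.27; limma adjusted p = 0.997). The platelet-type lipoxygenase Alox12 had −0.14, −0.05, −0.24, 0.70 and 0.36 in cafeteria animals, against −0.21, 0.21, 0.07 and 0.12 in control animals, with cafeteria 10 and 13 the highest (difference 0.08, SE 0.19; limma adjusted p = 0.997). These genes were chosen after their values were seen.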
